A study of Mus musculus with 15 samples.

Results

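Respiratory complex I, or NADH:ubiquinone oxidoreductase, was followed through 37 nuclear genes named for its subunits in single heart cells of mouse embryos. The genes were taken by symbol: 38 of the 23154 genes in the tables had a symbol beginning Ndufa, Ndufb, Ndufc, Ndufs or Ndufv, with pseudogenes and the Ndufaf assembly factors left out. Of these, 37 reached a library mean of at least 5 CPM (counts scaled to a fixed total per cell) in at least 2 libraries, as did 10665 genes in all. The choice used the symbol and the level, not a contrast between stages or lineages, and 36 of the 37 passed the level in all 15 libraries. Ndufa4l2 passed it in 6. Ndufs5, an accessory subunit of the membrane arm, was listed at 0 in every library, and no value is drawn from it. BC002163, a gene model with a 3′ end near-identical to that of Ndufs5, had 64.0 to 129.6 CPM. The rule also took in Ndufa4, whose protein is now counted with complex IV, and its relative Ndufa4l2, so 35 of the members are subunits of complex I by protein.

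Each cell came from a heart carrying the Rosa26tdTomato reporter with Isl1Cre or with Nkx2-5Cre, which leave the reporter on in the descendants of cells that once made Cre. The Isl1Cre hearts gave 2 libraries for each of E7.75, E8.25 and E8.75 and 1 library for E9.25. The Nkx2-5Cre hearts gave 2 libraries for each of these embryonic days. Isl1 encodes a factor made in progenitors of the second heart field, and Nkx2-5 encodes one made in cardiac progenitors and cardiomyocytes; the cells marked through them overlap. All groups carry the reporter allele, and no group without Cre was analysed here. Both libraries of a group carry the same embryo number in their titles, so they probably came from 1 embryo. The p-values then rest on library spread alone, possibly technical, and stages or lineages cannot be told apart from single embryos. The labels name neither the strain nor which cells were sorted for the reporter and which were only dissociated.

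Complex I takes electrons from NADH and passes them to ubiquinone while moving protons across the inner mitochondrial membrane. Its N module oxidises NADH, its Q module reduces ubiquinone, and its membrane arm pumps protons; the core subunits of the N and Q modules carry the electron path and are encoded in the nucleus, while the hydrophobic core of the membrane arm is encoded by mitochondrial DNA and was not analysed here. The other members are accessory subunits that the complex needs for assembly or stability. In the early embryonic heart, mitochondria are known to be sparse and immature and to gain cristae and respiratory activity as the heart begins to beat and grow.

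Of 1400 cells, 1332 were kept, 594 of Isl1Cre and 738 of Nkx2-5Cre, with library totals of 8165519 to 38321142 counts and a median of 121298.5 counts and 5873.5 genes per cell. No cell barcode was shared between libraries, and no cell was identical to another. Contractile genes were present in nearly every cell: Tnnt2, Myl7 and Actc1 were all detected in every kept cell of a library or in all but 1 or 2. The 12 cardiomyocyte markers summed to 7066 to 48030 CPM in Isl1Cre libraries and 14547 to 47355 CPM in Nkx2-5Cre libraries, lowest at E7.75 in both. Xist was 33.9 to 171 CPM in 8 libraries (Isl1Cre E7.75 and E8.25, Nkx2-5Cre E8.25 and E9.25) and 0.083 to 1.24 CPM in the other 7, which held 68.8 to 136.5 CPM of Y-linked RNA, so the sex of the embryos changes between stages and, at E7.75 and E9.25, between lineages. Ndufa1 and Ndufb11 are the 2 X-linked members.

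The summed level of the 37 transcripts per cell was higher at later stages in both lineages, by 1.55-fold in Isl1Cre and 1.41-fold in Nkx2-5Cre between E7.75 and E9.25. It is given as the library mean over kept cells, with no test. In Isl1Cre libraries the sum was 11558 and 11257 CPM at E7.75, 12998 and 13005 CPM at E8.25, 15215 and 15698 CPM at E8.75 and 17653 CPM at E9.25. For the sum, Nkx2-5Cre libraries had 12604 and 12666 CPM at E7.75, 16764 and 14835 CPM at E8.25, 16870.5 and 16549 CPM at E8.75 and 18075 and 17639.7 CPM at E9.25. At E7.75, E8.25 and E8.75 both Isl1Cre libraries lay below both Nkx2-5Cre libraries, and at E9.25 the single Isl1Cre library lay between the 2 Nkx2-5Cre libraries. From lowest to highest, the group means ran Isl1Cre E7.75 (11408 CPM), Nkx2-5Cre E7.75 (12635 CPM), Isl1Cre E8.25 (13001 CPM), Isl1Cre E8.75 (15456 CPM), Nkx2-5Cre E8.25 (15799 CPM), Nkx2-5Cre E8.75 (16710 CPM), Isl1Cre E9.25 (17653 CPM) and Nkx2-5Cre E9.25 (17858 CPM). Neighbours whose libraries overlapped were Nkx2-5Cre E8.25 with both E8.75 groups, and the E9.25 groups with each other. The cells of a library spread widely, with an SD over cells of 1469 to 4833 CPM. CPM are shares of a cell's counted RNA, so a higher sum and less of other RNA cannot be told apart, nor, in a library mean, more cells of a high type and more RNA in each cell.

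**Figure D1:**
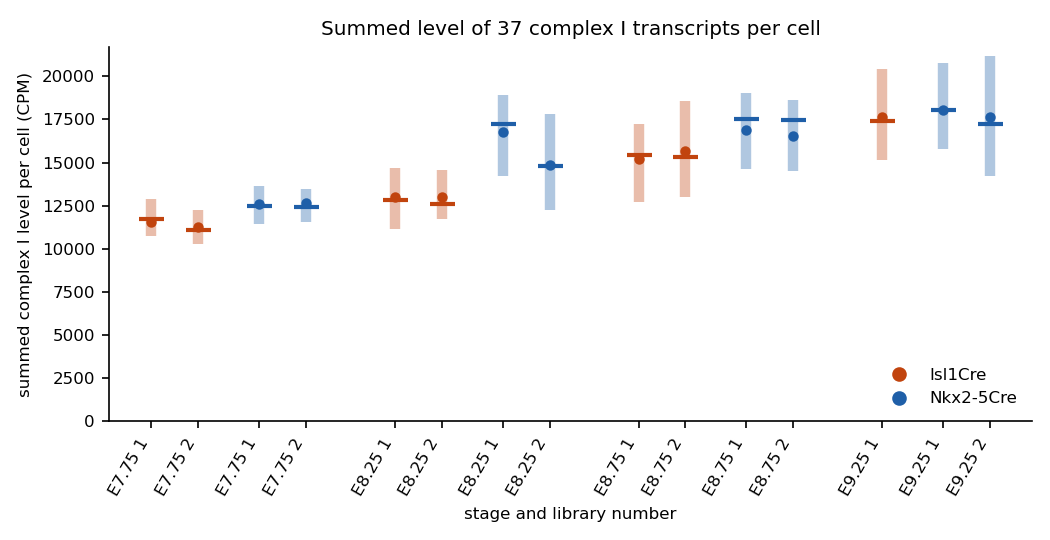
Summed level of the 37 complex I transcripts per cell (CPM, vertical axis) in each of 15 libraries, ordered by stage; points are library means, short lines medians and bars the quartiles over kept cells, in orange for Isl1Cre and blue for Nkx2-5Cre. Library means lie between 11257 CPM, in Isl1Cre at E7.75, and 18075 CPM, in Nkx2-5Cre at E9.25.

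A typical cell in every library held RNA of 36 of the 37 transcripts; with cells thinned to 5000 counts the median was 24 to 27 at E7.75 and 26 to 30 later. The balance between modules, taken over the 35 complex I subunits, shifted after E7.75. The N module made up 27.6% to 29.2% of the sum in the 4 libraries of E7.75 and 23.6% to 25.4% in the 11 later ones. The Q module made up 8.86% to 9.84% at E7.75 and 10.4% to 11.9% later, and neither module's ranges overlapped. The proximal membrane arm, next to the Q module, held 20.3% to 22.3% over all libraries, and the distal arm 30.2% to 34.8%, with overlapping ranges. The module lists were partial: Ndufa6, Ndufa9, Ndufa11 and Ndufab1 were in none of them and count towards the whole sum only. These shares compare 3′-end counts of transcripts, not amounts of each subunit.

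Most members changed with embryonic day in both lineages, as the slopes of log2(CPM + 1) over the 4 stages show; values after ± are SE, and adjusted p are from limma over all genes tested. In Isl1Cre, 30 of 37 rose (limma, adjusted p under 0.05), against 13.0% of all genes tested, and none fell, against 10.2%; with an unadjusted p under 0.05 none fell either, and edgeR and DESeq2 on recovered counts gave 32 higher and 0 lower each. In Nkx2-5Cre, 24 rose, against 13.2% of all genes, and Ndufa7 alone fell, against 11.6%. The median slope was 0.47 log2 units per day in Isl1Cre and 0.36 in Nkx2-5Cre, where the medians of all genes were -0.01 in both. The members' median stayed between 0.44 and 0.47 in Isl1Cre, and at 0.36 to 0.37 in Nkx2-5Cre, without TMM scaling or with DESeq2's size factors. The difference of slopes, Isl1Cre minus Nkx2-5Cre, was above 0 for 30 members, with a median of 0.13 (0.02 for all genes). Ndufa3 alone passed the test of that difference, against 1.89% of all genes that were higher, and no member was lower, against 0.694%; with an unadjusted p under 0.05, 6 were higher and 1, Ndufa10, was lower, and edgeR and DESeq2 gave none lower.

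The stage changes rest on E7.75 in part. Without the E7.75 libraries 18 members rose in Isl1Cre and none in Nkx2-5Cre (median slopes 0.54 and 0.21). With the libraries of a group taken as 1 unit, 7 and 0 were called at the same median slopes. The share of all genes called is given for the main fit alone. Fewer calls among all genes therefore cannot be told apart here from fewer among the members. The cardiomyocyte markers moved with them: all 12 rose in Isl1Cre (median 2.02 per day) and all 12 in Nkx2-5Cre (0.87), while all 7 endoderm markers tested fell in Isl1Cre and 6 of 7 in Nkx2-5Cre. Of the early mesoderm markers, all 4 tested fell in Isl1Cre (median -2.16) and 3 of 4 in Nkx2-5Cre (-2.24). Within clusters named cardiomyocyte-like, which hold no E7.75 library, 9 members rose in Isl1Cre and 1 in Nkx2-5Cre, with median slopes of 0.46 and 0.20. These clusters changed in weight with stage: that led by Tdgf1 held 57 of 70 cardiomyocyte-like cells in Isl1Cre and 32 of 132 in Nkx2-5Cre at E8.25, and none at E9.25. Summed erythroid RNA was 1176 to 1409 CPM at Nkx2-5Cre E8.75 and 219 CPM at Isl1Cre E9.25, and 0 to 21.8 CPM in the other libraries; the part of these markers and clusters in the slopes was not tested.

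**Figure D2:**
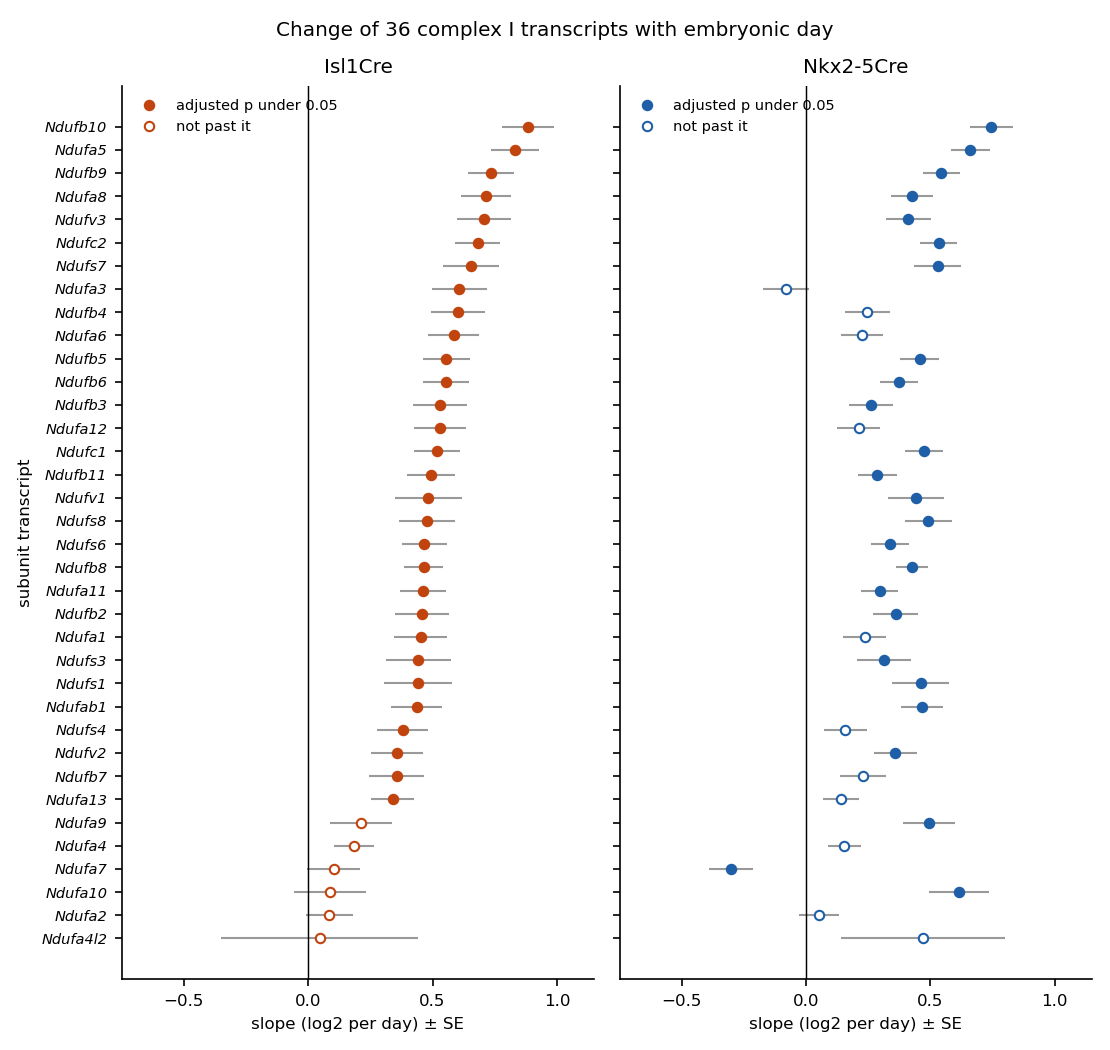
Slope of 36 of the 37 transcripts over 4 stages (log2 per day, horizontal axis; bars are SE), Isl1Cre left and Nkx2-5Cre right, with genes ordered by the Isl1Cre slope; filled points passed an adjusted p of 0.05. In Isl1Cre 30 points are filled, all right of 0, and in Nkx2-5Cre 25 are, of which Ndufa7 is left of 0.

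The distal membrane arm held the steepest member. All 10 of its Ndufb subunits rose in Isl1Cre, with a median of 0.54 per day, and 8 of 10 in Nkx2-5Cre, with a median of 0.37. Ndufb10, an accessory subunit of this arm, had 196 and 176 CPM at E7.75, 332 and 314 CPM at E8.25, 307 and 332 CPM at E8.75 and 503 CPM at E9.25 in Isl1Cre libraries. For Ndufb10, Nkx2-5Cre libraries had 187 and 209 CPM at E7.75, 437 and 359.9 CPM at E8.25, 386 and 365 CPM at E8.75 and 478 and 475 CPM at E9.25. Every library from E8.25 on lay above every E7.75 library in both lineages, and the lineages overlapped at E7.75. The Ndufb10 slope was 0.88 ± 0.10 (adjusted p = 4.97e-06) in Isl1Cre and 0.75 ± 0.09 (adjusted p = 6.58e-06) in Nkx2-5Cre. Ndufb9, a protein of the LYR motif family, had 445 and 441 CPM at E7.75, 513 and 556 CPM at E8.25, 689 and 792 CPM at E8.75 and 902 CPM at E9.25 in Isl1Cre libraries. For Ndufb9, Nkx2-5Cre libraries had 512 and 515 CPM at E7.75, 793 and 665 CPM at E8.25, 823 and 809.8 CPM at E8.75 and 902 and 949.5 CPM at E9.25. The lowest 2 libraries of each lineage were those of E7.75 and the highest those of E9.25, at a slope of 0.74 ± 0.09 (adjusted p = 8.52e-06) in Isl1Cre and 0.54 ± 0.08 (adjusted p = 4.11e-05) in Nkx2-5Cre. Ndufb2 and Ndufb6 (0.46 and 0.55 in Isl1Cre, 0.36 and 0.38 in Nkx2-5Cre) rose in both lineages, as did Ndufb3, Ndufb5, Ndufb8 and Ndufb11, while Ndufb4 and Ndufb7 passed only in Isl1Cre (0.60 and 0.36), at 0.25 and 0.23 in Nkx2-5Cre; the differences of these slopes did not pass (adjusted p = 0.208 and 0.733).

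Of the 5 members listed here for the Q module, 4 rose in each lineage. Ndufa5, an accessory subunit of this module, had 311 and 332 CPM at E7.75, 391 and 437 CPM at E8.25, 595 and 587 CPM at E8.75 and 723 CPM at E9.25 in Isl1Cre libraries. For Ndufa5, Nkx2-5Cre libraries had 339 and 332 CPM at E7.75, 623 and 499.6 CPM at E8.25, 635 and 559 CPM at E8.75 and 707 and 701 CPM at E9.25. Its level was higher at each later stage in Isl1Cre with no overlap of stages, whereas E8.25 and E8.75 overlapped in Nkx2-5Cre. The Ndufa5 slope was 0.83 ± 0.10 (adjusted p = 3.39e-06) in Isl1Cre and 0.66 ± 0.08 (adjusted p = 8.67e-06) in Nkx2-5Cre. Ndufs7, which holds the last iron-sulfur cluster before ubiquinone, had 255 and 223 CPM at E7.75, 288 and 401 CPM at E8.25, 436 and 418 CPM at E8.75 and 458 CPM at E9.25 in Isl1Cre libraries. For Ndufs7, Nkx2-5Cre libraries had 265 and 287 CPM at E7.75, 465 and 432 CPM at E8.25, 437 and 391 CPM at E8.75 and 530.4 and 516 CPM at E9.25. Here too the E7.75 libraries were lowest in both lineages, and the slope was 0.66 ± 0.11 (adjusted p = 0.000299) in Isl1Cre and 0.53 ± 0.09 (adjusted p = 0.00047) in Nkx2-5Cre.

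The core subunits Ndufs3 and Ndufs8 of the Q module rose as well. Ndufs3 had 112 and 134 CPM at E7.75, 198 and 177 CPM at E8.25, 149 and 209 CPM at E8.75 and 203 CPM at E9.25 in Isl1Cre libraries. For Ndufs3, Nkx2-5Cre libraries had 162 and 141 CPM at E7.75, 227 and 230.4 CPM at E8.25, 235 and 220.4 CPM at E8.75 and 244 and 194 CPM at E9.25. Its E7.75 libraries lay below all later ones in both lineages, and the slope was 0.44 ± 0.13 (adjusted p = 0.0193) in Isl1Cre and 0.31 ± 0.11 (adjusted p = 0.0426) in Nkx2-5Cre. Ndufs8, which carries a pair of iron-sulfur clusters, had 108 and 117 CPM at E7.75, 136 and 142 CPM at E8.25, 181 and 190.3 CPM at E8.75 and 173 CPM at E9.25 in Isl1Cre libraries. For Ndufs8, Nkx2-5Cre libraries had 125 and 119 CPM at E7.75, 169 and 139 CPM at E8.25, 199 and 199.9 CPM at E8.75 and 200.2 and 195 CPM at E9.25. The E7.75 libraries were lowest in both lineages, and the Ndufs8 slopes were 0.48 ± 0.11 (adjusted p = 0.00424) in Isl1Cre and 0.49 ± 0.09 (adjusted p = 0.000861) in Nkx2-5Cre.

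In the N module, 7 of 9 members rose in Isl1Cre and 5 of 9 in Nkx2-5Cre, where Ndufa7 fell. Ndufv3, an accessory subunit at the NADH-binding end, had 218 and 253 CPM at E7.75, 363 and 415 CPM at E8.25, 391 and 474 CPM at E8.75 and 498 CPM at E9.25 in Isl1Cre libraries. For Ndufv3, Nkx2-5Cre libraries had 347 and 317 CPM at E7.75, 525 and 432 CPM at E8.25, 431 and 385 CPM at E8.75 and 597 and 529 CPM at E9.25. Isl1Cre libraries of E7.75 lay below all others, and the slope was 0.71 ± 0.11 (adjusted p = 8.76e-05) in Isl1Cre and 0.41 ± 0.09 (adjusted p = 0.00264) in Nkx2-5Cre. Ndufv2, a core subunit with an iron-sulfur cluster, had 303 and 322 CPM at E7.75, 319 and 371 CPM at E8.25, 367 and 446 CPM at E8.75 and 433 CPM at E9.25 in Isl1Cre libraries. For Ndufv2, Nkx2-5Cre libraries had 302 and 319 CPM at E7.75, 499 and 425 CPM at E8.25, 507 and 472 CPM at E8.75 and 481 and 442 CPM at E9.25. E7.75 was lowest without overlap in Nkx2-5Cre, while E7.75 and E8.25 overlapped in Isl1Cre, and the Ndufv2 slope was 0.36 ± 0.11 (adjusted p = 0.0193) in Isl1Cre and 0.36 ± 0.09 (adjusted p = 0.00574) in Nkx2-5Cre. Ndufs1, a core subunit with several iron-sulfur clusters, had 59.9 and 80.0 CPM at E7.75, 98.7 and 98.5 CPM at E8.25, 118 and 127 CPM at E8.75 and 104 CPM at E9.25 in Isl1Cre libraries. For Ndufs1, Nkx2-5Cre libraries had 81.9 and 66.6 CPM at E7.75, 109.7 and 102 CPM at E8.25, 117 and 116 CPM at E8.75 and 136 and 111 CPM at E9.25. Its E7.75 libraries were lowest in both lineages, and the slope was 0.44 ± 0.14 (adjusted p = 0.0257) in Isl1Cre and 0.46 ± 0.11 (adjusted p = 0.00639) in Nkx2-5Cre. Ndufs4 and Ndufa12 passed in Isl1Cre (0.38 and 0.53 per day) and not in Nkx2-5Cre (0.16 and 0.21), and Ndufa2 passed in neither (0.08 and 0.05).

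In the proximal membrane arm, 6 of 7 tested members rose in Isl1Cre and 4 of 7 in Nkx2-5Cre. Ndufa8, a subunit on the intermembrane space side, had 153 and 176 CPM at E7.75, 243 and 216 CPM at E8.25, 262 and 273 CPM at E8.75 and 346 CPM at E9.25 in Isl1Cre libraries. For Ndufa8, Nkx2-5Cre libraries had 199 and 203 CPM at E7.75, 261 and 257 CPM at E8.25, 333 and 339 CPM at E8.75 and 294 and 308 CPM at E9.25. Isl1Cre was highest at E9.25 and Nkx2-5Cre at E8.75, and the slope was 0.71 ± 0.10 (adjusted p = 3.41e-05) in Isl1Cre and 0.43 ± 0.08 (adjusted p = 0.00112) in Nkx2-5Cre. Ndufa10, a subunit related to nucleoside kinases, rose in Nkx2-5Cre and did not pass in Isl1Cre. It had 116 and 145 CPM at E7.75, 113 and 120.1 CPM at E8.25, 126 and 154 CPM at E8.75 and 131 CPM at E9.25 in Isl1Cre libraries. For Ndufa10, Nkx2-5Cre libraries had 86.2 and 94.5 CPM at E7.75, 120.4 and 173 CPM at E8.25, 176 and 167 CPM at E8.75 and 157 and 194 CPM at E9.25. The Isl1Cre stages overlapped while both E7.75 libraries were lowest in Nkx2-5Cre, with slopes of 0.09 ± 0.14 (adjusted p = 0.722) in Isl1Cre and 0.62 ± 0.12 (adjusted p = 0.00106) in Nkx2-5Cre. The difference of the Ndufa10 slopes, -0.53 ± 0.19, did not pass (adjusted p = 0.15).

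The module lists used here left out 4 members, which are not in the module counts. Of these 4, Ndufab1, Ndufa6 and Ndufa11 rose in Isl1Cre, and Ndufab1, Ndufa9 and Ndufa11 in Nkx2-5Cre. Ndufab1, the mitochondrial acyl carrier protein, had 195 and 213 CPM at E7.75, 289.9 and 275 CPM at E8.25, 332 and 301 CPM at E8.75 and 315 CPM at E9.25 in Isl1Cre libraries. For Ndufab1, Nkx2-5Cre libraries had 197 and 226 CPM at E7.75, 362 and 329.6 CPM at E8.25, 419.5 and 407 CPM at E8.75 and 351 and 331 CPM at E9.25. In both lineages E7.75 was lowest, and the slope was 0.44 ± 0.10 (adjusted p = 0.00401) in Isl1Cre and 0.47 ± 0.08 (adjusted p = 0.000564) in Nkx2-5Cre. Neither member that is outside complex I by protein passed in any contrast. Ndufa4, the member with the highest level, had 1352 and 1244 CPM at E7.75, 1479 and 1421 CPM at E8.25, 1447 and 1491 CPM at E8.75 and 1548 CPM at E9.25 in Isl1Cre libraries. For Ndufa4, Nkx2-5Cre libraries had 1400.4 and 1458 CPM at E7.75, 1878 and 1588 CPM at E8.25, 1573 and 1555 CPM at E8.75 and 1793 and 1730.2 CPM at E9.25. In CPM the E7.75 libraries were lowest in both lineages. The Ndufa4 slopes of 0.18 ± 0.08 (adjusted p = 0.113) in Isl1Cre and 0.15 ± 0.07 (adjusted p = 0.103) in Nkx2-5Cre did not pass. Ndufa4l2, known as a target of hypoxia signalling and the member with the lowest level, had 2.92 and 3.50 CPM at E7.75, 6.73 and 7.48 CPM at E8.25, 11.0 and 3.81 CPM at E8.75 and 3.42 CPM at E9.25 in Isl1Cre libraries. For Ndufa4l2, Nkx2-5Cre libraries had 1.31 and 3.10 CPM at E7.75, 4.79 and 8.60 CPM at E8.25, 9.45 and 6.13 CPM at E8.75 and 4.88 and 3.37 CPM at E9.25. The highest value and one near the lowest of Isl1Cre came from the same stage, E8.75, and its slopes of 0.05 ± 0.40 (adjusted p = 0.953) in Isl1Cre and 0.47 ± 0.33 (adjusted p = 0.317) in Nkx2-5Cre were not distinguishable from 0.

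**Figure D3:**
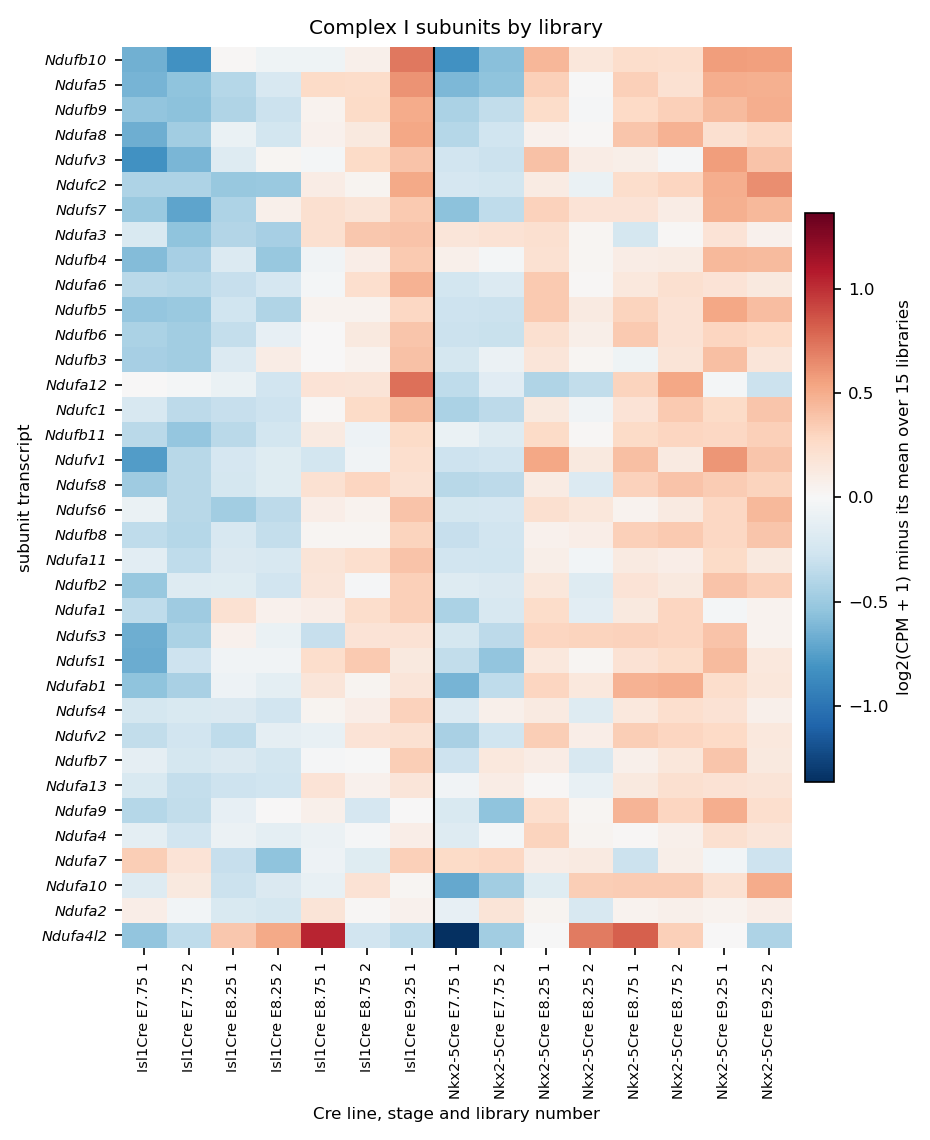
Level of 36 of the 37 transcripts in each library as log2(CPM + 1) minus the transcript's mean over 15 libraries (colour, red above and blue below the mean), Isl1Cre libraries left of the line and Nkx2-5Cre libraries right, by stage. The E7.75 columns are blue for most rows, while Ndufa7 is red there in both lineages and Ndufa3 in Nkx2-5Cre.

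The promoters of members that rose together, and of members that did not, are given here to set their sequences beside the slopes. Sequences are from RefSeq (GRCm38.p6), from 250 bases before to 50 after the annotated start, 5′ to 3′ on the gene's strand; 32 of the 37 members had one. Capitals mark matches to the motifs searched on both strands: the full palindromic NRF1 motif and its shorter core TGCGCA, which can share letters with it; CCGGAAGT for GABPA; AAGATGGC for YY1; AAGGTCA for ESRRA; and CCAAT. NRF1, GABPA and ESRRA are known regulators of mitochondrial genes. Ndufb10 (chr17:24724374-24724673, minus strand) and Ndufa5 (chr6:24527477-24527776, minus strand) had the steepest slopes, Ndufs6 (chr13:73328433-73328732, minus strand) the largest difference between lineages at E8.25 among members that were lower, Ndufa3 (chr7:3617123-3617422, plus strand) the difference between slopes, and Ndufa7 (chr17:33824322-33824621, plus strand) the slope below 0.
Ndufb10: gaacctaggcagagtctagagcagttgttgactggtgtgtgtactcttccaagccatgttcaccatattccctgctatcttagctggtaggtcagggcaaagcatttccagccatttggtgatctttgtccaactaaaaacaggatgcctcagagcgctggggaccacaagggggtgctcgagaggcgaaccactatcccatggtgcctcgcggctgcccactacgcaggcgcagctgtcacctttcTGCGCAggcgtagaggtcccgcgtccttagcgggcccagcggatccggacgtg
Ndufa5: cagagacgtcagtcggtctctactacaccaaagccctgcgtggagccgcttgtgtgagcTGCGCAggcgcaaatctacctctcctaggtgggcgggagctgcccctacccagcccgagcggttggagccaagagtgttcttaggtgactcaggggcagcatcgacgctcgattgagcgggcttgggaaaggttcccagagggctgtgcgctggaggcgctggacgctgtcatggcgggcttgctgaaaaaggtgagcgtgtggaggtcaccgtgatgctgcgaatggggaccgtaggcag
Ndufs6: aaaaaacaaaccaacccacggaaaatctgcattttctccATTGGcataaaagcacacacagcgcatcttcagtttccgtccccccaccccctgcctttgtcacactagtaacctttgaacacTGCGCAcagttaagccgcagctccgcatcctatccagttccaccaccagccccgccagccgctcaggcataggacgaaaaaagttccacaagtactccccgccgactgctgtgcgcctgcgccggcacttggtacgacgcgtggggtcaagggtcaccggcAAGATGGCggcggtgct
Ndufa3: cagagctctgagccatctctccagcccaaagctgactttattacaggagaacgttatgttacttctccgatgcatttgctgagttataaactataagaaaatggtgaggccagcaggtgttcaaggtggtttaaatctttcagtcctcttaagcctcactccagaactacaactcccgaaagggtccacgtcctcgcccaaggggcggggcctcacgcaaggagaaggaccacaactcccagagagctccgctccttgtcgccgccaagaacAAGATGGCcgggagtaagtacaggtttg
Ndufa7: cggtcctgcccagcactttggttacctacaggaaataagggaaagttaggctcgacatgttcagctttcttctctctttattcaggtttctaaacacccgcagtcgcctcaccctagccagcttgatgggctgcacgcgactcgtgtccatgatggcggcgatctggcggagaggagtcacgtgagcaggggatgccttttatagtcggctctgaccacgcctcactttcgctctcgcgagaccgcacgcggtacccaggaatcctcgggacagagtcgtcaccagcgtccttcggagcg
Ndufb10 and Ndufa5 each hold 1 TGCGCA, Ndufs6 holds CCAAT on the other strand (ATTGG as printed), TGCGCA and AAGATGGC, Ndufa3 holds AAGATGGC just after its start, and Ndufa7 holds none of the 6 motifs. TGCGCA was in 9 of the 32 promoters (28.1%, against 8.06% of 27025 promoters in all), and AAGATGGC in 7 (21.9%, against 2.88%). The full NRF1 motif was in 1 (3.12%, against 0.977%), CCGGAAGT in 1 (3.12%, against 4.0%), AAGGTCA in 2 (6.25%, against 4.66%) and CCAAT in 10 (31.2%, against 37.9%). Member promoters had a median GC content of 59.2%, against 52.7% in all promoters. The 9 genes with TGCGCA were Ndufa5, Ndufa6, Ndufa8, Ndufa9, Ndufb4, Ndufb6, Ndufb8, Ndufb10 and Ndufs6, and the 7 with AAGATGGC were Ndufa3, Ndufa9, Ndufb8, Ndufc1, Ndufs4, Ndufs6 and Ndufs7. A match is a description of letters and not a site.

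Between lineages at matched stages, most members were slightly lower in Isl1Cre than in Nkx2-5Cre. Averaged over stages the median difference, Isl1Cre minus Nkx2-5Cre, was -0.12 (-0.01 for all genes), and 32 of 37 members lay below 0. Of the 37, 6 passed as lower, against 3.67% of all genes, and 2 as higher, Ndufa12 among them, against 3.68%. The 6 were Ndufv1, Ndufb5, Ndufb4, Ndufb11, Ndufc2 and Ndufb8, of which 4 belong to the distal membrane arm. None of the 6 passed within cardiomyocyte-like clusters. The number of members lower was 3 by edgeR, 1 without E7.75 and 0 with a group as 1 unit. With 1 library left out it was 2 to 9, and it fell to 2 or 3 in the fits without library 1 of any Nkx2-5Cre stage, without Nkx2-5Cre E9.25 library 2, or without any library of Isl1Cre E7.75 or E8.25. Beside this, 10 of the 12 cardiomyocyte markers were lower in Isl1Cre at E7.75 and 9 of 12 at E8.25, where 6 of 7 endoderm markers were higher. Of 10 endothelial markers, 2 were lower at E8.25 (median -1.64) and 3 at E9.25 (-2.44), with none above 0 at either stage. Endothelial markers lay the other way at E7.75 and E8.75, with 8 of 10 above 0 (medians 0.74 and 1.45) and none called. At E9.25, 2 of the 12 cardiomyocyte markers were higher, and all 12 lay above 0 (median 0.46). The part of these markers in the differences was not tested.

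At single stages the differences were largest at E8.25. There 8 members were lower in Isl1Cre, against 2.61% of all genes, 1 was higher, against 2.48%, and the median was -0.32 (0.01 for all genes). At E7.75, 2 were lower, against 3.80%, and 1 higher, against 3.33%, with a median of -0.09 (-0.06 for all genes). At E8.75 none was higher, against 0.225%, and none lower, against 0.0938%, by limma, edgeR or DESeq2; with an unadjusted p under 0.05, 1 was higher and 6 were lower, and the median was -0.12. At E9.25, with its single Isl1Cre library, 2 were higher, against 0.422%, and none lower, against 0.553%, with a median of -0.01; none was lower there by an unadjusted p under 0.05 or, for edgeR and DESeq2, by adjusted p. The 8 of E8.25 were Ndufs6, Ndufb5, Ndufa3, Ndufa7, Ndufc2, Ndufb9, Ndufa5 and Ndufb11, from the N and Q modules and the proximal and distal membrane arm. Their number at E8.25 was 16 with a trimmed mean over cells, 14 by DESeq2, 2 with cells thinned to 5000 counts and 1 in cardiomyocyte-like clusters, where the median was -0.27 and most Isl1Cre cells of E8.25 were in the cluster led by Tdgf1. It was 1 without Nkx2-5Cre E8.25 library 1 or either Isl1Cre library of E8.25. At E7.75 the number lower was 0 without either Nkx2-5Cre library of that stage or without Isl1Cre E7.75 library 2, and 1 without Isl1Cre E7.75 library 1. At E9.25 the number higher was 0 without Nkx2-5Cre E9.25 library 2, and 1 without Nkx2-5Cre E9.25 library 1 or any library of the E7.75 groups or Isl1Cre E8.25.

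Ndufa12, an N module subunit that replaces an assembly factor in the finished complex, lies at chr10:94198720-94221443 (mm10, plus strand). It had 323 and 318 CPM at E7.75, 319.8 and 283 CPM at E8.25, 377 and 372 CPM at E8.75 and 533 CPM at E9.25 in Isl1Cre libraries. For Ndufa12, Nkx2-5Cre libraries had 272 and 289 CPM at E7.75, 248 and 265 CPM at E8.25, 418 and 466 CPM at E8.75 and 326 and 273 CPM at E9.25. Isl1Cre was above Nkx2-5Cre at E7.75, E8.25 and E9.25, and below it at E8.75. The difference was 0.28 ± 0.07 (adjusted p = 0.0214) averaged over stages and 0.92 ± 0.17 (adjusted p = 0.00989) at E9.25. The averaged call was lost without Isl1Cre E8.25 library 1 (0.26), Isl1Cre E9.25 library 1 (0.07), Nkx2-5Cre E8.75 library 1 (0.26) or Nkx2-5Cre E9.25 library 2 (0.25). At E9.25 the call was lost without Nkx2-5Cre E9.25 library 2 (0.79).

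**Figure D4:**
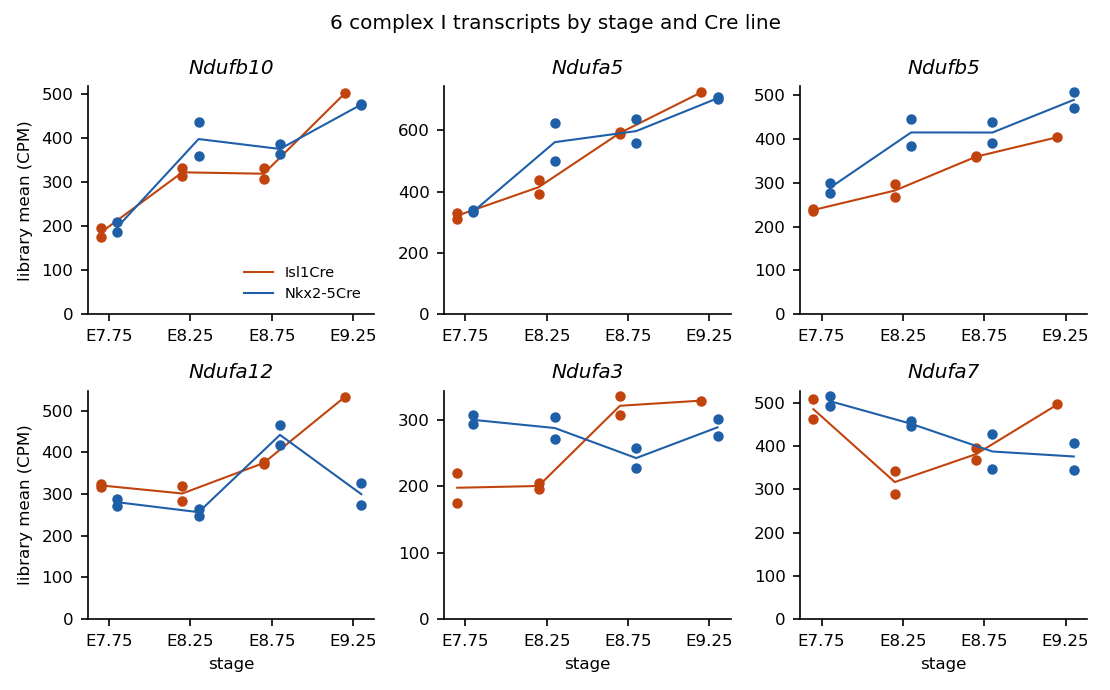
Library means (CPM, vertical axis) of Ndufb10, Ndufa5, Ndufb5, Ndufa12, Ndufa3 and Ndufa7 by stage; points are libraries and lines join group means, Isl1Cre in orange and Nkx2-5Cre in blue. Ndufb10 and Ndufa5 climb in both lineages, Ndufb5 is lower in Isl1Cre at each stage, and Ndufa3 is lower in Isl1Cre at E7.75 and E8.25 and higher at E8.75 and E9.25.

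Ndufa3 was the member whose change with stage differed between lineages. It encodes a small subunit of the proximal membrane arm at chr7:3617373-3620327 (mm10, plus strand) and overlaps Tfpt, on the other strand, which had 14.9 to 42.0 CPM. Ndufa3 had 220.4 and 176 CPM at E7.75, 205 and 197 CPM at E8.25, 307 and 336 CPM at E8.75 and 329 CPM at E9.25 in Isl1Cre libraries. For Ndufa3, Nkx2-5Cre libraries had 307 and 294 CPM at E7.75, 305 and 271 CPM at E8.25, 227 and 258 CPM at E8.75 and 302 and 277 CPM at E9.25. The Isl1Cre libraries lay below the Nkx2-5Cre ones at E7.75 and E8.25 and above them at E8.75 and E9.25. Slopes were 0.61 ± 0.11 (adjusted p = 0.000541) in Isl1Cre and -0.08 ± 0.09 (adjusted p = 0.558) in Nkx2-5Cre, and their difference was 0.69 ± 0.14 (adjusted p = 0.0131), with an adjusted p of 0.038 by edgeR. The call on the slope difference was lost without Isl1Cre E7.75 library 2 (0.59) or Nkx2-5Cre E9.25 library 2 (0.66) (adjusted p = 0.0561 and 0.0563). Differences at single stages were -0.56 ± 0.15 (adjusted p = 0.0242) at E7.75 and -0.55 ± 0.15 (adjusted p = 0.0361) at E8.25. They were 0.41 ± 0.15 (adjusted p = 0.252) at E8.75 and 0.27 ± 0.18 (adjusted p = 0.589) at E9.25. The E7.75 call was lost without Isl1Cre E7.75 library 2 (-0.39), Nkx2-5Cre E7.75 library 1 (-0.58) or Nkx2-5Cre E7.75 library 2 (-0.54), and that of E8.25 without Isl1Cre E8.25 library 1 (-0.57), Isl1Cre E8.25 library 2 (-0.51), Nkx2-5Cre E8.25 library 1 (-0.45) or Nkx2-5Cre E8.25 library 2 (-0.64). In cardiomyocyte-like clusters the slope difference was 0.74 and did not pass (adjusted p = 0.309).

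Ndufa7, an N module subunit at chr17:33824572-33838317 (mm10, plus strand), was the member that fell with stage in Nkx2-5Cre. It had 509 and 462 CPM at E7.75, 344 and 290.4 CPM at E8.25, 396 and 367 CPM at E8.75 and 497 CPM at E9.25 in Isl1Cre libraries. For Ndufa7, Nkx2-5Cre libraries had 517 and 492 CPM at E7.75, 446 and 458 CPM at E8.25, 347 and 429 CPM at E8.75 and 408 and 345 CPM at E9.25. In Nkx2-5Cre the 2 libraries of E7.75 were highest, and in Isl1Cre E8.25 was lowest. The slope was 0.10 ± 0.11 (adjusted p = 0.543) in Isl1Cre and -0.30 ± 0.09 (adjusted p = 0.0194) in Nkx2-5Cre, and the Nkx2-5Cre call was lost without Nkx2-5Cre E7.75 library 1 (-0.32), Nkx2-5Cre E7.75 library 2 (-0.30) or Nkx2-5Cre E9.25 library 2 (-0.24). At E8.25 Ndufa7 differed by -0.54 ± 0.14 (adjusted p = 0.03), a call lost without Isl1Cre E8.25 library 1 (-0.66), Isl1Cre E8.25 library 2 (-0.42), Nkx2-5Cre E8.25 library 1 (-0.55) or Nkx2-5Cre E8.25 library 2 (-0.53). The difference of slopes, 0.40 ± 0.14, did not pass (adjusted p = 0.14).

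Among the N module members that were lower in Isl1Cre, Ndufv1, the core subunit that binds NADH and FMN, had 85.8 and 113 CPM at E7.75, 131 and 137 CPM at E8.25, 126 and 143 CPM at E8.75 and 167 CPM at E9.25 in Isl1Cre libraries. For Ndufv1, Nkx2-5Cre libraries had 128 and 122 CPM at E7.75, 216 and 167 CPM at E8.25, 203 and 159 CPM at E8.75 and 229.7 and 197 CPM at E9.25. Each Isl1Cre library lay below both Nkx2-5Cre libraries of its stage, with a difference of -0.37 ± 0.09 (adjusted p = 0.0207) averaged over stages. That call was lost without Isl1Cre E7.75 library 1 (-0.32), Nkx2-5Cre E8.25 library 1 (-0.32), Nkx2-5Cre E8.75 library 1 (-0.33) or Nkx2-5Cre E9.25 library 1 (-0.34). Ndufs6, a zinc-binding subunit, had 536 and 440.3 CPM at E7.75, 434 and 468 CPM at E8.25, 622 and 599 CPM at E8.75 and 730.0 CPM at E9.25 in Isl1Cre libraries. For Ndufs6, Nkx2-5Cre libraries had 515 and 486 CPM at E7.75, 680.5 and 659 CPM at E8.25, 620.3 and 623 CPM at E8.75 and 717 and 802 CPM at E9.25. The lineages were apart at E8.25 by -0.60 ± 0.12 (adjusted p = 0.00629), a call lost without Isl1Cre E8.25 library 1 (-0.54), and overlapped at the other stages. Ndufs6 overlaps Mrpl36 on the other strand.

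In the distal membrane arm, Ndufb5 had 235 and 241 CPM at E7.75, 296 and 268 CPM at E8.25, 360.1 and 359 CPM at E8.75 and 404 CPM at E9.25 in Isl1Cre libraries. For Ndufb5, Nkx2-5Cre libraries had 299 and 277 CPM at E7.75, 445 and 384 CPM at E8.25, 439.5 and 389.6 CPM at E8.75 and 507 and 471 CPM at E9.25. Each Isl1Cre library of this accessory subunit lay below both Nkx2-5Cre libraries of its stage, with a difference of -0.30 ± 0.07 (adjusted p = 0.00915) averaged over stages, a call kept in all 15 fits with 1 library left out (-0.33 to -0.27). At E8.25 it differed by -0.58 ± 0.12 (adjusted p = 0.00986), and that call was lost without Isl1Cre E8.25 library 2 (-0.51) or Nkx2-5Cre E8.25 library 1 (-0.47). Ndufb5 overlaps Mrpl47 on the other strand (36.7 to 71.5 CPM). Ndufb4 had 149 and 166 CPM at E7.75, 209.6 and 166 CPM at E8.25, 224 and 246 CPM at E8.75 and 284 CPM at E9.25 in Isl1Cre libraries. For Ndufb4, Nkx2-5Cre libraries had 254 and 222 CPM at E7.75, 268 and 239 CPM at E8.25, 254 and 245 CPM at E8.75 and 318 and 317 CPM at E9.25. In CPM the lineages overlapped at E8.75 alone. Ndufb4 differed by -0.29 ± 0.08 (adjusted p = 0.0235) averaged over stages and by -0.54 ± 0.14 (adjusted p = 0.0259) at E7.75. The averaged call was lost without Isl1Cre E7.75 library 1 (-0.27), Isl1Cre E8.25 library 2 (-0.25), Isl1Cre E8.75 library 1 (-0.27), Nkx2-5Cre E7.75 library 1 (-0.28), Nkx2-5Cre E8.25 library 1 (-0.27) or Nkx2-5Cre E9.25 library 1 (-0.29). The E7.75 call was lost without Isl1Cre E7.75 library 1 (-0.47), Isl1Cre E7.75 library 2 (-0.61), Nkx2-5Cre E7.75 library 1 (-0.50) or Nkx2-5Cre E7.75 library 2 (-0.59).

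Ndufb11, an X-linked subunit of the same arm, had 311 and 281 CPM at E7.75, 329 and 356 CPM at E8.25, 449.7 and 390.1 CPM at E8.75 and 474 CPM at E9.25 in Isl1Cre libraries. For Ndufb11, Nkx2-5Cre libraries had 405 and 357 CPM at E7.75, 496 and 423 CPM at E8.25, 507 and 493 CPM at E8.75 and 508 and 522 CPM at E9.25. Isl1Cre was lower at each stage without overlap, with a difference of -0.26 ± 0.07 (adjusted p = 0.0214) averaged over stages, a call lost without Isl1Cre E7.75 library 2 (-0.24), Isl1Cre E8.25 library 1 (-0.24) or Nkx2-5Cre E9.25 library 2 (-0.25). Ndufb11 overlaps Rbm10 on the other strand (66.1 to 149.95 CPM), and Gm6444 has a near-identical 3′ end, so its counts are uncertain. Ndufb8 had 487 and 479 CPM at E7.75, 565 and 522 CPM at E8.25, 654 and 649 CPM at E8.75 and 753 CPM at E9.25 in Isl1Cre libraries. For Ndufb8, Nkx2-5Cre libraries had 537 and 520.1 CPM at E7.75, 668 and 688 CPM at E8.25, 819 and 799.9 CPM at E8.75 and 788 and 843 CPM at E9.25. In CPM the lineages did not overlap at any stage. On the TMM-scaled log2 values that were tested, the Isl1Cre library of E9.25 (9.63) lay between the Nkx2-5Cre libraries (9.61 and 9.70). The averaged difference was -0.19 ± 0.06 (adjusted p = 0.0404). It was past the threshold in only 1 of the 15 fits with a library left out (-0.24 to -0.17 over the 15), that without Isl1Cre E9.25 library 1. Ndufc2, of the proximal arm, had 272 and 274 CPM at E7.75, 269.7 and 269.5 CPM at E8.25, 404 and 381 CPM at E8.75 and 514 CPM at E9.25 in Isl1Cre libraries. For Ndufc2, Nkx2-5Cre libraries had 332 and 308 CPM at E7.75, 405 and 357 CPM at E8.25, 453 and 448 CPM at E8.75 and 534 and 587 CPM at E9.25. In CPM Isl1Cre lay below Nkx2-5Cre at each stage. On the TMM-scaled log2 values its E9.25 library (9.07) lay between the Nkx2-5Cre libraries (9.05 and 9.18). The Ndufc2 slope was 0.68 ± 0.09 (adjusted p = 1.95e-05) in Isl1Cre and 0.53 ± 0.08 (adjusted p = 5.07e-05) in Nkx2-5Cre. The lineages differed by -0.24 ± 0.06 (adjusted p = 0.0293) averaged over stages and by -0.52 ± 0.12 (adjusted p = 0.0147) at E8.25. The averaged call was lost in 10 of the 15 fits (-0.30 to -0.21) and kept without Isl1Cre E8.75 library 1, Isl1Cre E9.25 library 1, Nkx2-5Cre E7.75 library 2, Nkx2-5Cre E8.25 library 2 or Nkx2-5Cre E9.25 library 1. That of E8.25 was lost without Isl1Cre E8.25 library 1 (-0.52), Isl1Cre E8.25 library 2 (-0.52) or Nkx2-5Cre E8.25 library 1 (-0.42). Ndufb9 differed by -0.47 ± 0.12 (adjusted p = 0.0266) at E8.25, and lost this call without Isl1Cre E8.25 library 1 (-0.41), Isl1Cre E8.25 library 2 (-0.53) or Nkx2-5Cre E8.25 library 1 (-0.33).

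The other respiratory complexes moved with stage in the same direction, from lists chosen with these data known. Complex II rose in 3 of 4 genes in each lineage, complex III in 9 of 9 in Isl1Cre and 7 of 9 in Nkx2-5Cre, complex IV in 14 and 9 of 15, and complex V, the ATP synthase, in 14 and 11 of 15; none fell. Median slopes in Isl1Cre were 0.66, 0.58, 0.61 and 0.58 for complexes II, III, IV and V, and in Nkx2-5Cre 0.62, 0.34, 0.34 and 0.33. The muscle forms of complex IV subunits were steepest, with Cox6a2 at 3.995 and 3.12 per day in Isl1Cre and Nkx2-5Cre and Cox7a1 at 2.29 and 1.01. The ratio of the summed 35 complex I subunits to the sum of complex III was 2.06 to 2.38 over the 15 libraries, and to that of complex V 0.834 to 0.936. Against complex II the ratio was 16.2 to 18.4 at E7.75 and 12.1 to 14.0 later, without overlap. Across cells of a library with at least 20000 counts, Spearman's rho of the 35-subunit sum with the sums of complexes III, IV and V was 0.372 to 0.674 at E7.75 and 0.688 to 0.906 later; cells share their library and CPM share a total, so this is a description.

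Assembly factors build complex I and leave it. In Isl1Cre 3 of 13 tested rose, against 13.0% of all genes: Ndufaf5, a methyltransferase-like enzyme, by 1.58 per day, Foxred1 by 0.78 and Ndufaf4 by 0.48. In Nkx2-5Cre 2 rose, against 13.2% of all genes, Ndufaf5 by 0.54 and Ndufaf7 by 0.73, and the median slopes were 0.30 and 0.19. Of 10 regulators of mitochondrial biogenesis, Ppargc1a and Ppargc1b, coactivators of that programme, rose by 2.29 and 2.28 per day in Isl1Cre and by 1.56 and 1.36 in Nkx2-5Cre. Nrf1 fell by 0.73 in Isl1Cre, and Polrmt, the mitochondrial RNA polymerase, fell by 0.79 in Nkx2-5Cre. These calls are from limma, and by edgeR neither passed (adjusted p = 0.133 for Nrf1 and 0.139 for Polrmt). Ppargc1b did not pass by edgeR (adjusted p = 0.0861 in Isl1Cre and 0.164 in Nkx2-5Cre), nor did Foxred1 in Isl1Cre (0.0995). Of 10 genes taken as measures of mitochondrial content, 6 rose in each lineage, with Slc25a4, the adenine nucleotide carrier of muscle, at 1.32 in Isl1Cre and 0.96 in Nkx2-5Cre.

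Between lineages at E8.25 the other complexes were lower in Isl1Cre as well, with 1 of 4 genes in complex II, 4 of 9 in III, 8 of 15 in IV and 8 of 15 in V, and medians of -0.36, -0.42, -0.55 and -0.46. The assembly factor Ndufaf5 differed by -1.27 there. Averaged over stages, Sdhc of complex II was higher in Isl1Cre by 0.64, while Cox7a1 (-0.55), Cs (-0.39) and Ppargc1a (-0.79) were lower. The slope difference passed as higher in 4 of 15 genes of complex IV, 2 of 15 of V, 1 of 9 of III and 0 of 4 of II. Of all genes tested, 1.89% did so. Cox7a1 (1.28), Atp5e (0.76) and Cyc1 (0.56) were among them, and Cs (0.91) passed too. By edgeR Cyc1 did not pass (adjusted p = 0.244).

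Cells were grouped without the members to see where complex I RNA lay. Genes of the other respiratory complexes, such as Cox6a2, were not left out, so the groups are not independent of respiratory RNA. Of 12 clusters, 4 were cardiomyocyte-like (665 cells), 2 endothelial-like (116 cells) and 1 endoderm-like (40 cells) from fixed markers. The other 511 cells stayed unnamed, among them most cells of E7.75. An unnamed cluster of 95 cells had 9 of 12 cardiomyocyte markers raised and 4850 CPM of Tnnt2, but Sfrp5 among its leading genes. Another, of 72 cells with 11 such markers raised, was too shallow to name (median 4016 counts). In the 8 libraries with at least 5 cells of both, the summed level was 13735 to 19062 CPM in cardiomyocyte-like and 10837 to 13411 CPM in endothelial-like cells. It was higher in cardiomyocyte-like cells in 8 of 8 libraries, by 1.23-fold to 1.53-fold, with no test since the clusters were cut from the same cells. The complex V sum differed alike, by 1.26-fold to 1.53-fold. Endothelial-like cells held 198 to 1001 CPM of Tnnt2, against 4903 to 7283 CPM in cardiomyocyte-like cells, and the part of RNA from other cells was not tested.

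By member, 23 of 37 were higher in cardiomyocyte-like cells in 8 of 8 libraries, 10 in 7, 3 in 6 and 1, Ndufa10, in 5. The same count was not made over all genes, so whether the members stand out in it was not tested. Ndufv3 averaged 529 ± 72.3 CPM in cardiomyocyte-like and 222 ± 48.2 CPM in endothelial-like cells (SD, n = 8 libraries each), a ratio of 2.38. Ndufa6 (461 ± 42.9 and 250.1 ± 83.8 CPM) and Ndufb10 (410.5 ± 70.4 and 233 ± 25.4 CPM) followed at 1.84 and 1.76. At the other end was Ndufa10 (156 ± 28.2 and 159 ± 43.9 CPM), with a ratio of 0.983 and spreads that overlapped.

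Within cardiomyocyte-like cells, 2 clusters with Nppa and Cck among their leading genes (382 cells) had more complex I RNA than 2 led by Myh7 and Tdgf1 (283 cells, 172 of them in the cluster with Myh7 first and 111 in that with Tdgf1 first). Myh7 was also among the leading genes of 1 Nppa and Cck cluster (226 cells), so Tdgf1 and not Myh7 tells the sets apart. Nppa marks working chamber myocardium, Myh7 encodes a myosin heavy chain, and Tdgf1 is known from the outflow region. The sum was 16174 to 21956 CPM in Nppa and Cck clusters over the 10 libraries with at least 5 cells of both kinds. It was 13013 to 16967 CPM in Myh7 and Tdgf1 clusters, lower in 10 of these 10 libraries, and the ratio was 1.19 to 1.36. An 11th library, Isl1Cre E8.25 library 1, had 2 cells in the Nppa and Cck clusters and 27 in the others, and was not compared. Tnnt2 overlapped between the 2 sets of clusters, at 4963 to 7594 CPM and 4781 to 6814 CPM. Depth overlapped too but was unequal, with library medians of 107988 to 215757 counts per cell (median 138748.5) in Nppa and Cck clusters. In Myh7 and Tdgf1 clusters it was 87141 to 220620.5 (median 100270), and the part of depth in the sums was not tested. By group, cardiomyocyte-like cells of Isl1Cre averaged 14014 ± 395 CPM at E8.25, 16220.4 ± 409.6 at E8.75 (SD, n = 2 libraries each) and 17910.5 in the library of E9.25. Those of Nkx2-5Cre averaged 16575 ± 991, 17410.0 ± 359.5 and 18982 ± 114 CPM at these stages, so the Isl1Cre means lay below the Nkx2-5Cre means at each of them.

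The lineages filled these clusters unequally. At E8.25 the Nppa and Cck clusters held 13 of 70 cardiomyocyte-like cells in Isl1Cre and 86 of 132 in Nkx2-5Cre. The shares were 58 of 98 and 95 of 138 cells at E8.75, and 57 of 83 and 73 of 144 at E9.25. These totals leave out the unnamed cluster of 95 cells with raised cardiomyocyte markers. At E8.25 that cluster held 24 and 16 cells of the Isl1Cre libraries and 11 and 7 of the Nkx2-5Cre libraries. Within the cluster with Tdgf1 first, the sum at E8.25 was 13626 and 13604 CPM in Isl1Cre libraries and 14089 and 12770 CPM in Nkx2-5Cre libraries, so the lineages overlapped there. In the Nppa and Cck clusters at E8.25 it was 16174 CPM in the Isl1Cre library with at least 5 such cells, and 18515 and 17549 CPM in Nkx2-5Cre libraries. At E8.75 these clusters had 17027 and 18691 CPM in Isl1Cre and 18668 and 18963 CPM in Nkx2-5Cre, again with overlap, while at E9.25 the Isl1Cre library had 19225 CPM, below the 20697 and 21956 CPM of Nkx2-5Cre. The part of the clusters' shares in the lineage difference was not tested.

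**Figure D5:**
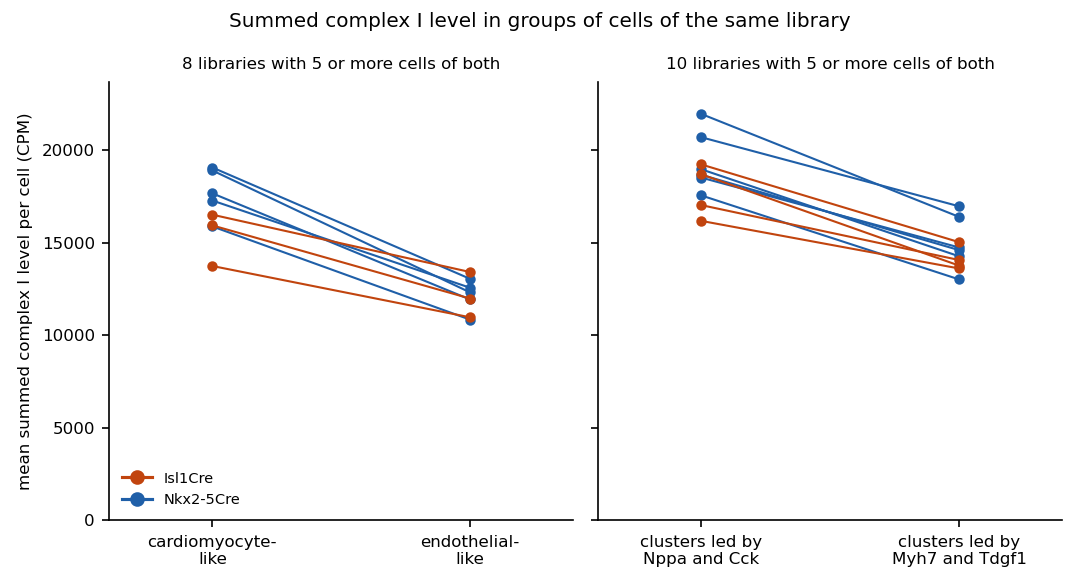
Mean summed complex I level per cell (CPM, vertical axis, from 0) in cardiomyocyte-like and endothelial-like cells of 8 libraries (left) and in clusters led by Nppa and Cck and by Myh7 and Tdgf1 in 10 libraries (right), each library with at least 5 cells of both kinds; each line is a library, orange for Isl1Cre and blue for Nkx2-5Cre. Each line runs down from left to right.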

How the data were processed

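Each library's table holds CPM per gene and cell, deposited by the authors. Per the labels' protocols, cells were dissociated, sorted or picked singly, and made into 3′-end libraries with cell barcodes and molecular identifiers by a modified Smart-seq2 method. Per the submitters' processing notes, CASAVA 1.8, TopHat2 2.0.12, HTSeq and mm10 were used; they do not say whether counting used strand. Low CPM values were whole multiples of 1 count per cell within 0.1 of a step in 100% of cases, so counts were recovered; whether these are reads or molecules is not given.

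Cells with at least 2000 counts and 1000 genes were kept (61 to 94 per library), and no doublet caller was run because cells were picked singly. Library means of CPM were scaled by TMM factors (0.9546 to 1.042), and log2(mean CPM + 1) was tested with limma 3.58.1 (trended, 8 group means, 7 residual degrees of freedom, R 4.3.3) over the 10665 genes that reached 5 CPM in 2 or more libraries, with Benjamini-Hochberg adjustment at 0.05. A fold change on this scale understates that of low genes. The lone Isl1Cre E9.25 library is assumed to vary like the others. Alternatives used edgeR 4.0.16, DESeq2 1.42.0, another pseudocount or scaling, thinned or trimmed cells and left-out libraries. The scripts were tested on simulated data. Clusters were built with members left out, and a cluster with more markers of another class among its top 10 genes stayed unnamed, a rule added after the data were seen. Members and lists were chosen with earlier results of these data known. Named genes were core subunits, Ndufa4, Ndufa4l2, Ndufab1 and the members with the largest called changes per contrast. One member is not reported here by itself, and counts and sums over the members include it. Same-numbered libraries did not deviate together.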

Additional observations from a re-analysis of the deposited data

Results flagged for a closer look

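The slope of Ndufa3 over stages differed between lineages by 0.6891 log2 units per day (Isl1Cre minus Nkx2-5Cre; adjusted p = 0.0131, limma), and it is listed because the difference itself passed its test. The change was upward in Isl1Cre, where the single E9.25 library and both E8.75 libraries lay above every earlier one. Nkx2-5Cre libraries held 227 to 307 CPM with no order of stages. No other member passed this test, and no group had enough libraries for a search for outlying samples.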

How the results depend on the processing

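No called result changed direction under the 29 settings. The number of members lower in Isl1Cre averaged over stages (6) was 3 by edgeR, 1 with cells thinned to 5000 counts, 2 with all deposited cells, 0 with libraries of a group as 1 unit, 1 without the E7.75 libraries and 1 in cardiomyocyte-like clusters, and 2 to 9 with 1 library left out. At E7.75 (2 lower) it was 1 with no filter and 0 by edgeR, with thinned cells, a trimmed mean or all cells, and 0 to 3 with 1 library left out. At E8.25 (8 lower) it was 4 with no filter, 14 by DESeq2, 2 with thinned cells, 16 with a trimmed mean, 2 with all cells, 5 without E7.75 and 1 in cardiomyocyte-like clusters, and 1 to 9 with 1 library left out. At E9.25 (2 higher) it was 1 without TMM, with no filter, without E7.75 and in cardiomyocyte-like clusters, and 0 with thinned cells and all cells, and 0 to 2 with 1 library left out. Slopes in Isl1Cre (30 higher) gave 7 with a group as 1 unit, 18 without E7.75 and 9 in cardiomyocyte-like clusters, and 23 to 31 with 1 library left out; slopes in Nkx2-5Cre (24) gave 0, 0 and 1, and 16 to 27. The slope difference (1) gave 2 by DESeq2 and 0 with thinned cells, a group as 1 unit or cardiomyocyte-like clusters, and 0 to 1 with 1 library left out. The ratio of sums between E9.25 and E7.75 was 1.5932 in Isl1Cre without Ndufa4 and Ndufa4l2 (1.5474 with them), and 1.4418 in Nkx2-5Cre with thinned cells (1.4133 without thinning). Apart from fewer libraries, cells or degrees of freedom, the causes were not tested. The share of all genes called is not given for these settings. The cardiomyocyte-like fit was added after the data were seen, and the planned set of cells with Tnnt2, Myl7 and Actc1 held nearly every cell and lost none of the 34 named calls.

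With the replicate number as a block (replicate block), 2 members were higher and 6 lower averaged over stages, 30 rose in Isl1Cre, 24 rose and 1 fell in Nkx2-5Cre, and the slope difference of Ndufa3 was 0.6772; each of the 34 calls on single members was kept. The numbers share no deviation (21 correlations between same-numbered libraries, -0.0315 to 0.1657, median 0.0177), so they do not pair the libraries.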
